A study of Mus musculus with 6 samples.

Results

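Immunoglobulin heavy chain variable (Ighv) segments were examined in bulk spleen RNA of NOD.B10 mice, a model of primary Sjögren's syndrome (pSS), and of healthy BL/10 mice (3 females each). Members were all genes with a symbol starting in Ighv and at least 10 counts summed over the 6 libraries, and 126 of 185 such genes among the 47729 genes of the table met this rule. They comprised 105 functional V genes and 21 pseudogenes of 15 V families. Members just inside and just outside the rule were Ighv1-19-1 (10 counts in all) and Ighv1-62 and Ighv8-10 (8 counts each). All 126 lie on the minus strand of chr12:113572927-116010093 (GRCm38), and none overlaps another annotated gene.

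An antibody heavy chain gene is assembled in each developing B cell by the RAG recombinase, which joins 1 of many V segments to a D and a J segment upstream of the constant gene Ighm. The V segment encodes most of the antigen-binding domain. All B cells therefore transcribe a rearranged V segment, and antibody-secreting plasma cells contain far more of this RNA than resting B cells. In bulk RNA, a smaller number of cells that use a segment and less RNA of it per cell cannot be told apart. Reads of both strains were counted on 1 reference genome. A strain difference in how the reads of a segment map therefore cannot be told apart from these either.

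The NOD.B10 group was of strain NOD.B10Sn-H2b/J, which carries the H2b haplotype, and the control group was of strain C57BL/10SnJ. No transgene, deletion or treatment is named for these mice. The labels give an age of 26 weeks for all 3 NOD.B10 spleens and for BL/10 replicate 1, and of 36 weeks for BL/10 replicates 2 and 3. The methods differ, as they give 26 weeks for NOD.B10 and call the controls age-matched. Fits with age as a covariate use the labels and in effect set NOD.B10 against BL/10 replicate 1 alone. Strains were assigned by the sample descriptions and the column names. In all 6 samples the title and strain field give the other strain, and every direction given here would be reversed under the titles. Library totals were between 15662712 and 18298451 counts. BL/10 replicate 1 stood apart, since pancreas acinar markers, which a spleen should lack, summed to 13776 CPM in it (CPM are counts normalized for sequencing depth). Their sum was 2122 CPM in BL/10 replicate 2, 111 CPM in BL/10 replicate 3 and 22.5 to 31.3 CPM in NOD.B10. Without BL/10 replicate 1, the log2 fold change of the Ighv total was 0.94 (edgeR adjusted p = 0.00534) in place of 0.81.

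Summed over all members, Ighv RNA was higher in NOD.B10 spleens. The members received 42372, 47071 and 49280 counts in NOD.B10 replicates 1, 2 and 3 and 34142, 19815 and 26437 counts in BL/10 replicates 1, 2 and 3. The strains did not overlap, and the BL/10 library nearest to NOD.B10 was replicate 1, the only BL/10 spleen labelled 26 weeks. Normalized for library size and composition by TMM, the total averaged 2727 ± 181 CPM in NOD.B10 against 1559 ± 267 CPM in BL/10 (SD, n = 3 each). The log2 fold change was 0.81 with a standard error (SE) of 0.15, and the adjusted p was 0.0107 in the quasi-likelihood test of edgeR. An exact permutation test of the CPM gave p = 0.1, the smallest value that 3 libraries against 3 allow. With age as a covariate the log2 fold change was 0.56 (edgeR adjusted p = 0.107), and with the 19 members whose sequence is unique in every 50-base window, the length of a read, it was 0.77 (edgeR adjusted p = 0.0503).

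**Figure D1:**
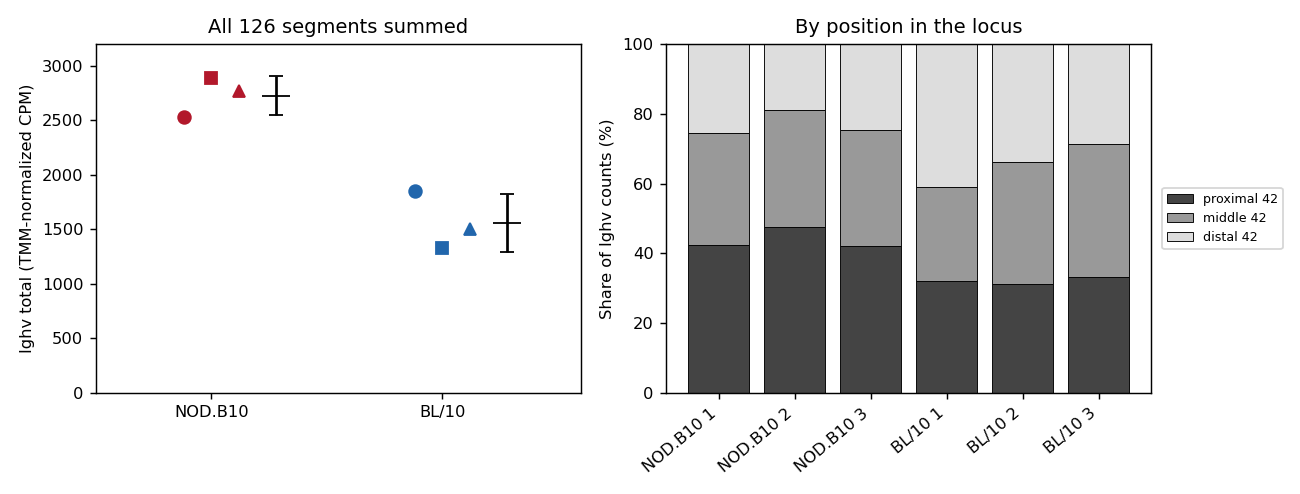
Left, TMM-normalized CPM summed over all 126 Ighv segments, with 1 point per library (circle, square and triangle for replicates 1, 2 and 3) and bars for mean and SD (n = 3). Right, share of each library's Ighv counts (%) from the 42 segments nearest to Ighm (proximal), the middle 42 and the distal 42. The lowest NOD.B10 total (2530 CPM) lies above the highest BL/10 total (1851 CPM), and proximal segments hold at least 42.05% of the counts in NOD.B10 and at most 33.3% in BL/10.

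The sum of the heavy chain constant genes, most of it Ighm, also lay higher in all NOD.B10 libraries than in BL/10, although single constant genes differed in direction. They summed to 17641, 20891 and 19761 CPM in NOD.B10 and to 13490, 10242 and 12155 CPM in BL/10. For every 100 counts on constant genes, 14.3, 13.8 and 14.0 counts fell on Ighv segments in NOD.B10, and 13.7, 13.0 and 12.3 did in BL/10. The ratio therefore differed by only 1.04 counts between strain means, although the libraries did not overlap (exact permutation p = 0.1, two-sided).

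Of the 126 members, 97 passed edgeR's filter on low counts and were tested. Of these, 28 were higher in NOD.B10 and 0 were lower at an adjusted p under 0.05 (the same edgeR test). This is 28.9% of the tested members, against 9.11% of all 15330 genes tested that were higher and 8.22% that were lower. All 28 were functional V genes, and the 3 tested pseudogenes were not called. The median log2 fold change of the tested members was 0.77, compared with 0.0006 over all genes tested, and 71 members lay above 0 and 26 below. At an unadjusted p under 0.05, 44 members were higher and 4 were lower. The 4 lower segments were Ighv1-75, Ighv1-49, Ighv5-15 and Ighv10-1, which are named here after their values were seen. DESeq2 called all 28 members and 38 in all, and it called Ighv5-15 (log2 fold change -1.97) and Ighv10-1 (-0.82) lower. The shares of all genes at the unadjusted threshold and with DESeq2 are not given here, so these counts stand without a background.

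All 3 NOD.B10 libraries lay above all 3 BL/10 libraries for 33 of the 97 tested members, or 34.0%, against 20.5% of all genes tested. For 0 tested members did all NOD.B10 libraries lie below, against 17.5% of all genes. Among the 29 members that were not tested, the NOD.B10 libraries lay above for 6 and below for 1. The shares of all genes cover tested genes only, so these 2 counts have no matching share. The 1 below was the pseudogene Ighv1-41, which had 5, 2 and 3 counts in the NOD.B10 spleens against 8, 8 and 13 in BL/10. In the fits without 1 library or with age as a covariate, 97 to 104 members were tested. The shares of all genes called in these fits are not given here. The count of higher members depended on single libraries and on the age covariate, whose effect cannot be told apart from that of BL/10 replicate 1. It was 17 without NOD.B10 replicate 3, 18 without BL/10 replicate 2, 33 without BL/10 replicate 1 and 11 with age as a covariate, and 12 of the 28 members were called whichever library was left out.

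**Figure D2:**
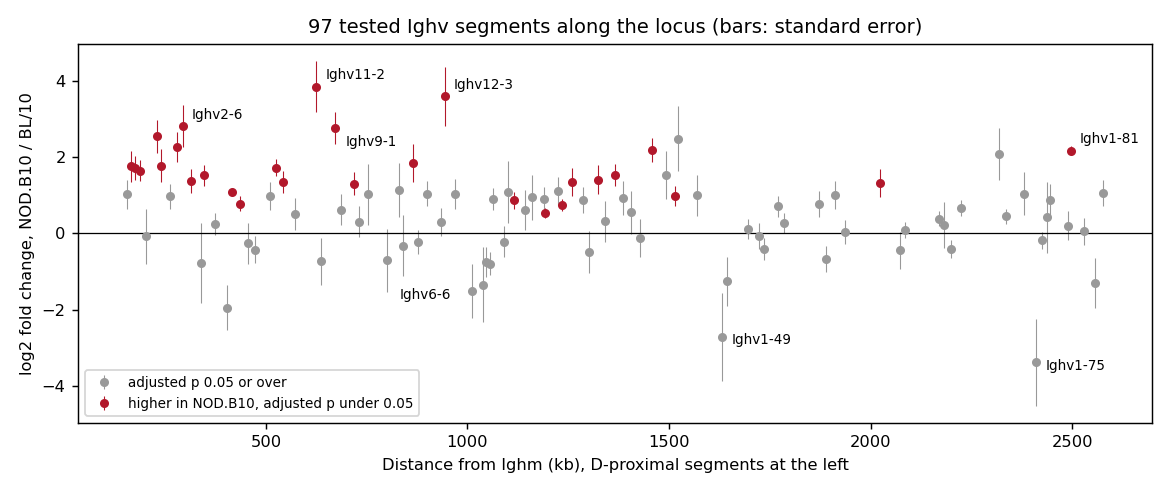
Log2 fold change (NOD.B10 over BL/10) of the 97 tested Ighv segments against their distance from Ighm in kb, with bars for the standard error. Red points mark the 28 segments with an adjusted p under 0.05, and 17 of these lie within 877 kb of Ighm.

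The largest increase was found for Ighv11-2 (ENSMUSG00000096108, chr12:114048241-114048812), a segment known for its use by B-1 cells, the self-renewing B cells that make natural IgM against phosphatidylcholine. It received 735, 3287 and 1735 counts in the NOD.B10 spleens against 76, 76 and 254 in BL/10. All NOD.B10 libraries were above all BL/10 libraries, and the level varied several-fold within each strain. Its mean was 114 ± 80.2 CPM (SD, n = 3) in NOD.B10 compared with 7.87 ± 5.68 CPM (SD, n = 3) in the controls, or a log2 difference of 3.85 (SE 0.67, edgeR adjusted p = 0.0082). It held 1.73%, 6.98% and 3.52% of the Ighv counts in NOD.B10 spleens and 0.223%, 0.384% and 0.961% in controls. It was called whichever library was left out.

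Where they align, the transcripts of Ighv11-2 and Ighv11-1 are 98.9% identical, and few bases there tell them apart. The transcript of Ighv11-2 has 461 bases and that of Ighv11-1 has 353, so this identity leaves out a part of Ighv11-2. Of the 50-base windows of Ighv11-2, 61.4% are unique. The final 200 transcribed bases of each are shown to display how little separates them, with capitals at the 2 bases that differ. They are taken from GENCODE M21 transcripts (GRCm38, minus strand, chr12:114048241-114048440 for Ighv11-2 and chr12:113981879-113982078 for Ighv11-1) and are written 5′ to 3′.
Ighv11-2: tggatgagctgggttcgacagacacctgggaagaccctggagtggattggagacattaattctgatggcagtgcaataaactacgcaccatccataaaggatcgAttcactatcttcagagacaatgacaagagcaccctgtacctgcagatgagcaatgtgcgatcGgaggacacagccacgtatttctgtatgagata
Ighv11-1: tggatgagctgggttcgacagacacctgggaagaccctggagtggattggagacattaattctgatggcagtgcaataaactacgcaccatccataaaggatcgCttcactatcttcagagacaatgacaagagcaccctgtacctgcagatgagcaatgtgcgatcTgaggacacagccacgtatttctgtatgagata
Ighv11-1 received 11, 2 and 1 counts in the NOD.B10 spleens against 2, 0 and 2 in BL/10, so nearly all counts of this family fell on Ighv11-2 in both strains.

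The next largest increase was that of Ighv12-3 (ENSMUSG00000076676, chr12:114366521-114366954), the other segment for which B-1 cells with phosphatidylcholine specificity are known. It received 487, 1195 and 126 counts in the NOD.B10 spleens against 47, 54 and 51 in BL/10. The BL/10 spleens were close to each other, and NOD.B10 replicate 3 lay far below the other NOD.B10 spleens but above all of BL/10. Its mean was 36.5 ± 33.7 CPM (SD, n = 3) in NOD.B10 compared with 3.02 ± 0.544 CPM (SD, n = 3) in the controls, or a log2 difference of 3.60 (SE 0.78, edgeR adjusted p = 0.0189). The adjusted p rose to 0.0637 without BL/10 replicate 2 and to 0.0751 without BL/10 replicate 3, and it was 0.161 with age as a covariate. Its sequence is distinctive, as all of its 50-base windows are unique and its nearest relative, Ighv3-2, is 79.4% identical. The final 200 transcribed bases of Ighv12-3 are printed with capitals at the 45 bases that differ from Ighv3-2 (GENCODE M21, GRCm38, chr12:114366521-114366720, minus strand, 5′ to 3′).
Ighv12-3: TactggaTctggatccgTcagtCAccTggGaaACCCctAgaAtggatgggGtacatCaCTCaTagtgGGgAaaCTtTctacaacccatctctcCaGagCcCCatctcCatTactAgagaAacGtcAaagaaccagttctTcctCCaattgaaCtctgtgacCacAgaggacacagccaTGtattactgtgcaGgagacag

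B-1 receptors are known to pair these heavy chains with particular kappa light chains, Ighv11-2 with Igkv14-126 and Ighv12-3 with Igkv4-91. Both light chain segments were examined after the heavy chain values were seen. Igkv14-126 received 2654, 11366 and 5671 counts in the NOD.B10 spleens against 442, 939 and 804 in BL/10 (log2 fold change 3.15, SE 0.57, edgeR adjusted p = 0.0099). Igkv4-91 had the opposite direction, with 134, 80 and 134 counts in the NOD.B10 spleens against 693, 348 and 625 in BL/10 (log2 fold change -2.24, SE 0.24, edgeR adjusted p = 0.00098). How well reads of NOD.B10 alleles map to these segments was not tested.

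The most uniform of the large increases was seen for Ighv1-81 (ENSMUSG00000094689, chr12:115920279-115920712), one of the segments farthest from Ighm. It received 998, 990 and 1168 counts in the NOD.B10 spleens against 231, 243 and 221 in BL/10. The replicates of each strain were close and the strains were far apart. Its means of 61.9 ± 3.15 and 13.8 ± 2.16 CPM (SD, n = 3 each) gave a log2 difference of 2.17 (SE 0.12, edgeR adjusted p = 5.8e-05), which ranged from 2.10 to 2.30 in the fits that each left out 1 library. Ighv5-16 was as even at a smaller size, with 468, 461 and 494 counts in the NOD.B10 spleens against 234, 181 and 263 in BL/10 (log2 fold change 1.08, SE 0.11, edgeR adjusted p = 0.00073). Every 50-base window of Ighv5-16 is unique. Of the 19 members for which this is so, 14 were tested, and Ighv5-16 and Ighv12-3 were the 2 that were called, or 14.3%, near the 9.11% of all genes that were higher.

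Ighv2-6, Ighv9-1 and Ighv2-4 followed Ighv11-2 and Ighv12-3 in the size of the increase. Ighv2-6 received 809, 469 and 1103 counts in the NOD.B10 spleens against 75, 36 and 229 in BL/10 (log2 fold change 2.82, SE 0.56, edgeR adjusted p = 0.0138). Ighv9-1 received 650, 467 and 954 counts in the NOD.B10 spleens against 55, 155 and 83 in BL/10 (log2 fold change 2.76, SE 0.43, edgeR adjusted p = 0.00498). In both, the lowest NOD.B10 library exceeded the highest BL/10 library by a wide margin. Ighv2-4 was scarce, with 51, 27 and 82 counts in the NOD.B10 spleens against 11, 6 and 10 in BL/10 (log2 fold change 2.55, SE 0.43, edgeR adjusted p = 0.00737), and it is 97.7% identical to Ighv2-5. Ighv5-12, Ighv1-36 and Ighv5-9 also rose, with log2 fold changes of 2.26, 2.18 and 1.78. The libraries of each did not overlap, and the adjusted p of Ighv5-9 reached 0.107 without NOD.B10 replicate 1 and was also over 0.05 without NOD.B10 replicate 2 or 3 or BL/10 replicate 3. That of Ighv2-6 was 0.0553 without NOD.B10 replicate 3. With age as a covariate, Ighv2-6 and Ighv2-4 lost the call (edgeR adjusted p = 0.0677 and 0.0951).

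Per kb of gene length, the most abundant segment over the 6 libraries was Ighv3-6 (mean 437 CPM per kb), followed by Ighv1-26 (315) and Ighv1-9 (289). Ighv6-3, Ighv9-3, Ighv6-6, Ighv5-17, Ighv1-82, Ighv1-75 and Ighv11-2 completed the 10 most abundant, at 204 to 132 CPM per kb. The order differed between strains. Among the 126 members, Ighv11-2 was at rank 6 in NOD.B10 and rank 64 in BL/10, and Ighv6-6 was at ranks 32 and 2. Ighv1-75 was at ranks 64 and 1, with its BL/10 mean set by replicate 1. Ighv3-6 received 4152, 6282 and 1503 counts in the NOD.B10 spleens against 1676, 800 and 976 in BL/10. NOD.B10 replicate 3 fell within the range of BL/10, and among the 28 higher members Ighv3-6 was the only one whose strains overlapped (log2 fold change 1.84, SE 0.50, edgeR adjusted p = 0.0408). It lost the call without NOD.B10 replicate 1 or 2 or BL/10 replicate 2 or 3, with adjusted p values from 0.0947 to 0.131. Ighv1-26 received 1610, 3949 and 2776 counts in the NOD.B10 spleens against 1102, 893 and 895 in BL/10, so that BL/10 spleens were alike and NOD.B10 spleens spread (log2 fold change 1.54, SE 0.30, edgeR adjusted p = 0.0124). Its adjusted p was 0.0569 without BL/10 replicate 3 and 0.132 with age as a covariate. Ighv9-3 and Ighv5-17 rose by 1.30 and 0.78 on the log2 scale. Ighv9-3 lost the call without NOD.B10 replicate 3 or BL/10 replicate 2 or 3, and Ighv5-17 without any NOD.B10 library or without BL/10 replicate 3, with adjusted p values up to 0.0660 and 0.115. With age as a covariate Ighv3-6, Ighv9-3 and Ighv5-17 were not called either (edgeR adjusted p = 0.344, 0.232 and 0.0598).

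The other abundant segments did not pass the threshold. Ighv1-9 received 4269, 1225 and 1270 counts in the NOD.B10 spleens against 2151, 828 and 620 in BL/10, with the highest level of each strain in replicate 1 (log2 fold change 0.95, SE 0.59, edgeR adjusted p = 0.29). Ighv6-3 received 843, 1227 and 2968 counts in the NOD.B10 spleens against 690, 798 and 926 in BL/10 (edgeR adjusted p = 0.115). Ighv1-82 received 653, 680 and 1614 counts in the NOD.B10 spleens against 857, 1157 and 734 in BL/10, and its log2 fold change was 0.05 (SE 0.36). The strains overlapped for all 3 of these segments.

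**Figure D3:**
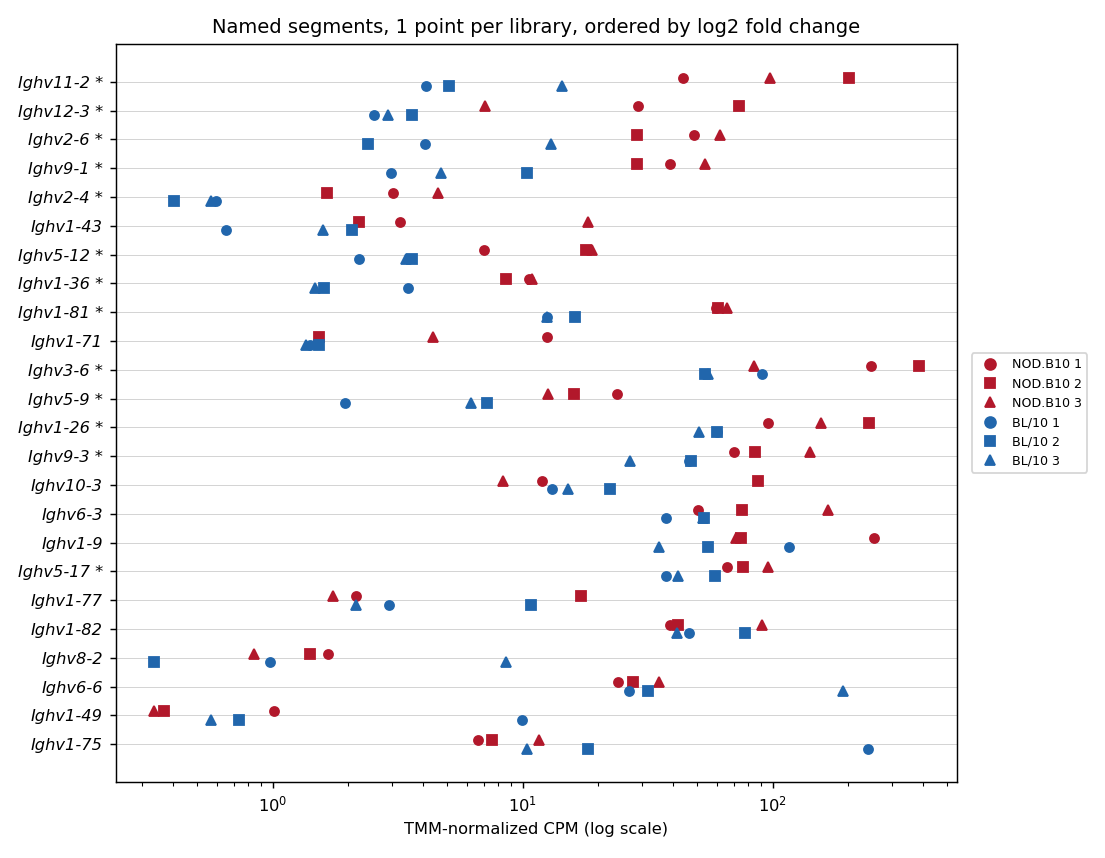
TMM-normalized CPM (log scale) of 24 Ighv segments that were the most abundant, the most increased or, in 1 library, far above the median of the others. Each library is 1 point (red NOD.B10, blue BL/10, with circle, square and triangle for replicates 1, 2 and 3). An asterisk marks an adjusted p under 0.05, as for Ighv1-81, where NOD.B10 lies between 59.6 and 65.5 CPM and BL/10 between 12.5 and 16.3 CPM. Ighv1-75 shows 1 point far from the rest, BL/10 replicate 1 at 242 CPM.

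Single spleens held large amounts of particular segments. For 25 members, the library with the highest level had at least 100 counts and at least 4 times the median CPM of the other 5 libraries. The highest library was NOD.B10 replicate 1, 2 or 3 for 2, 9 and 6 of these members and BL/10 replicate 1, 2 or 3 for 5, 0 and 3. Segments high in all 3 NOD.B10 spleens, such as Ighv11-2 and Ighv1-81, also meet this rule. For them the median of the others is a BL/10 value, so these counts mix strain differences with an excess in 1 spleen. The clearest excess in 1 spleen was that of Ighv1-75 (ENSMUSG00000096020, chr12:115833950-115834418). It received 111, 123 and 208 counts in the NOD.B10 spleens against 4461, 274 and 184 in BL/10. BL/10 replicate 1 was 23.2 times the median of the others, and in it Ighv1-75 was the leading segment with 13.1% of the Ighv counts. The log2 fold change of -3.39 (SE 1.13, edgeR adjusted p = 0.0784) rested on this library and was -0.74 when it was left out. It passed the threshold without BL/10 replicate 3 (-3.93, edgeR adjusted p = 0.0476). With age as a covariate, a fit that sets NOD.B10 against BL/10 replicate 1, it was -4.81.

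Ighv1-75 is 96.3% identical to Ighv1-84, so some of its reads can map to both, and such reads were not counted. Ighv1-84 received 28, 30 and 100 counts in the NOD.B10 spleens against 271, 68 and 58 in BL/10, so that its level was also highest in BL/10 replicate 1. The final 200 transcribed bases of both are shown because they differ at 10 positions, in capitals, and 57.1% of the 50-base windows of Ighv1-75 are unique (GENCODE M21, GRCm38, chr12:115833950-115834149 and chr12:115980702-115980901, minus strand, 5′ to 3′).
Ighv1-75: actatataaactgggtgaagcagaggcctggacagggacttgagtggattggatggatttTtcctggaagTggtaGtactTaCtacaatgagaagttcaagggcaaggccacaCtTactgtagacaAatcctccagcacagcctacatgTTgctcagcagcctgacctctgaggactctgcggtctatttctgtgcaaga
Ighv1-84: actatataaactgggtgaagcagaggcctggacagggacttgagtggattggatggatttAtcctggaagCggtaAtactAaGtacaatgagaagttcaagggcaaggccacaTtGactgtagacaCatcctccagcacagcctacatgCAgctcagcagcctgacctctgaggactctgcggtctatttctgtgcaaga

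Ighv6-6 (ENSMUSG00000076680, chr12:114434788-114435244) led the Ighv counts of BL/10 replicate 3 with 12.7% of them. It received 402, 453 and 625 counts in the NOD.B10 spleens against 493, 476 and 3369 in BL/10, so the first and second BL/10 spleens lay within the range of NOD.B10. Its log2 fold change was -1.52 (SE 0.71, edgeR adjusted p = 0.171), and without BL/10 replicate 3 it was -0.02. Its nearest relative, Ighv6-5, is 91.6% identical and received between 2 and 7 counts in all libraries. Capitals mark the 14 bases by which the final 200 transcribed bases of Ighv6-6 differ from those of Ighv6-5 (GENCODE M21, GRCm38, chr12:114434788-114434987, minus strand, 5′ to 3′).
Ighv6-6: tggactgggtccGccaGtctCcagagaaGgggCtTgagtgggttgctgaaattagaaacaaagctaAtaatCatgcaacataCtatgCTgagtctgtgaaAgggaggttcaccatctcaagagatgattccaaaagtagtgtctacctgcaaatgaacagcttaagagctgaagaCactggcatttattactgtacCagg

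Of the other segments with 1 high library, Ighv1-49 received 183 counts in BL/10 replicate 1 and between 6 and 17 elsewhere, and Ighv8-2 received 151 counts in BL/10 replicate 3 and between 5 and 28 elsewhere. Ighv10-3 and Ighv1-77 were highest in NOD.B10 replicate 2, with 1432 and 280 counts. Ighv1-71 was highest in NOD.B10 replicate 1 (209 counts against 23 to 78 elsewhere) and Ighv1-43 in NOD.B10 replicate 3 (327 counts against 12 to 54). None of these 6 segments had an adjusted p under 0.05 in edgeR, although the unadjusted edgeR p of Ighv1-43, Ighv1-71 and Ighv1-49 lay under 0.05. Without NOD.B10 replicate 2, Ighv1-43 and Ighv1-71 passed (edgeR adjusted p = 0.0482 and 0.0163). Ighv1-71 is nearly indistinguishable from Ighv1-62-2, with 99.7% identity and 2.58% unique windows, and the counts of both are uncertain.

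V families group segments of similar sequence, and their totals depend less on which relative a read is assigned to. Reads that mapped to several places were not counted, so a family total does not recover them. Of the 15 families, 7 were higher in NOD.B10 and 0 were lower at an adjusted p under 0.05 in edgeR, in a table where 9.16% of all genes were higher and 8.45% were lower. The 7 families were Ighv2, Ighv3, Ighv4, Ighv5, Ighv9, Ighv11 and Ighv12. No family had libraries of NOD.B10 entirely below those of BL/10. At an unadjusted p under 0.05 the family Ighv1 was also higher and 0 were lower, and DESeq2 called 8 higher and 0 lower.

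Ighv5 was the most even, with totals of 251, 258 and 245 CPM in the NOD.B10 spleens against 168, 120 and 112 CPM in BL/10 (log2 fold change 0.92, SE 0.16, edgeR adjusted p = 0.00743), and 6 of its 11 members were called. Ighv2 had 206, 169 and 269 CPM in the NOD.B10 spleens against 58.7, 47.9 and 121 CPM in BL/10 (log2 fold change 1.502, SE 0.34, edgeR adjusted p = 0.0226), and 5 of its 9 members were called. Ighv4, nearly all of it Ighv4-1, had 57.6, 40.2 and 61.3 CPM in the NOD.B10 spleens against 13.1, 16.3 and 20.03 CPM in BL/10 (log2 fold change 1.69, SE 0.20, edgeR adjusted p = 0.00151). Ighv9 rose by 1.41 on the log2 scale with 2 of 4 members called, and Ighv3 by 1.74 with 2 of 7 members called. Ighv11 and Ighv12 were carried by Ighv11-2 and by their only member Ighv12-3. Ighv4, Ighv5, Ighv9 and Ighv11 were called whichever library was left out, and without BL/10 replicate 2 only these 4 families passed. With age as a covariate 3 families passed.

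Ighv1, by far the largest family with 67 members, held 48.9%, 40.04% and 45.2% of the Ighv counts in NOD.B10 spleens and 58.1%, 54.9% and 42.2% in controls. Its total was 1238, 1156 and 1251 CPM in the NOD.B10 spleens against 1075, 729 and 633 CPM in BL/10. The libraries did not overlap, but BL/10 replicate 1 came near to NOD.B10 and the difference did not pass the threshold (log2 fold change 0.58, SE 0.19, edgeR adjusted p = 0.0777). Without BL/10 replicate 1 it did (0.83, edgeR adjusted p = 0.00435). Of its 50 tested members, 10 were called, or 20%, compared with 18 of 47 in all other families together, or 38.3%. Ighv6, Ighv7, Ighv8, Ighv10, Ighv13, Ighv14 and Ighv15 had overlapping libraries and log2 fold changes between -0.05 and 0.62, and of these Ighv14 passed without BL/10 replicate 1 (1.15, edgeR adjusted p = 0.0201).

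**Figure D4:**
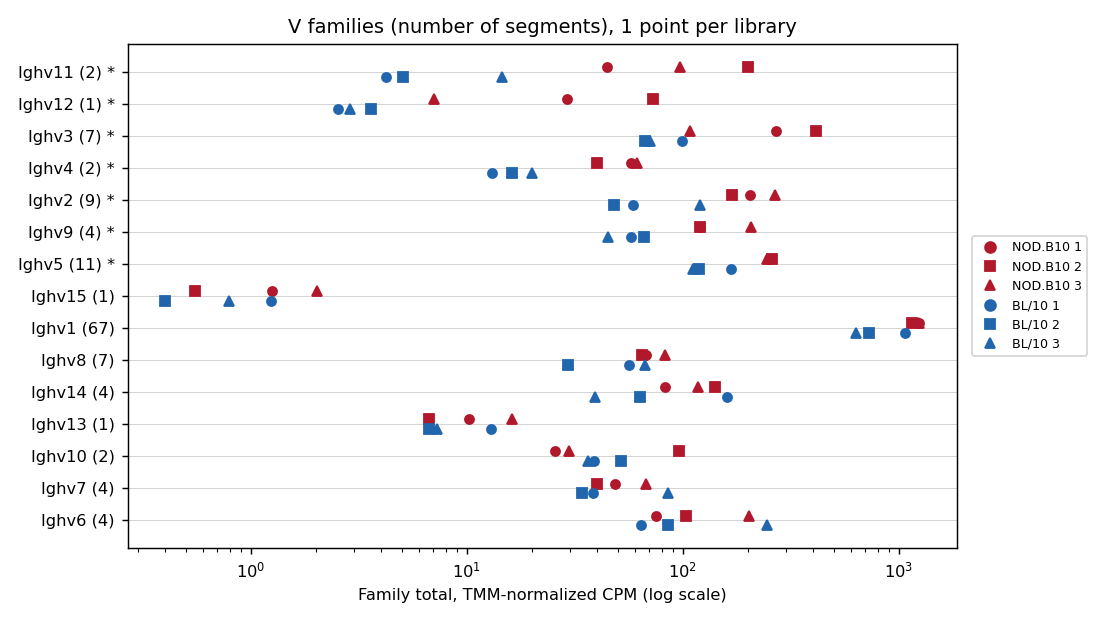
Total TMM-normalized CPM (log scale) of each of the 15 V families, with the number of members in brackets and 1 point per library (red NOD.B10, blue BL/10, with circle, square and triangle for replicates 1, 2 and 3). The 7 families with an asterisk had an adjusted p under 0.05 and all lie at higher values in NOD.B10, while Ighv6 and Ighv7 at the bottom overlap between strains.

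The number of called segments was counted along the locus, and the difference between parts of it was not tested. Segments were ordered by distance from Ighm and divided into 3 groups of 42. In the proximal group, from 150 to 877 kb, 17 of 35 tested members, or 48.6%, were higher in NOD.B10 (median log2 fold change 1.02), against 9.11% of all genes. In the middle group, up to 1514 kb, it was 9 of 30, or 30.0% (median 0.89), and in the distal group, up to 2587 kb, 2 of 32, or 6.25% (median 0.25), which is below the share of all genes. The 2 were Ighv1-81 and Ighv1-62-2, of which Ighv1-62-2 has 8.21% unique windows and was called in 1 of the 6 fits without 1 library (edgeR adjusted p up to 0.119). The distal median still lay above the 0.0006 of all genes tested. At an unadjusted edgeR p under 0.05 in either direction, 21 proximal, 17 middle and 10 distal members passed, again without a share of all genes beside them. The calls that held whichever library was left out numbered 10, 1 and 1. Over the 97 tested members, Spearman's rho of log2 fold change against distance was -0.26, a description across segments that share libraries and, in part, sequence.

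As a share of a library's Ighv counts, proximal segments made up 42.5%, 47.4% and 42.05% in NOD.B10 and 32.2%, 31.3% and 33.3% in BL/10. Distal segments made up 25.6%, 18.9% and 24.6% in NOD.B10, against 41.1%, 33.9% and 28.7% in BL/10. The strains did not overlap for either share (exact permutation p = 0.1 each, two-sided), and they overlapped for the middle segments. To see whether single abundant segments set these shares, the leading segment of each library was removed from all of them. Without these 6 segments, proximal segments averaged 44.5% in NOD.B10 and 37.9% in BL/10, and distal segments 26.2% and 34.9%, and the strains still did not overlap (exact permutation p = 0.1 each).

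Position and family cannot be separated fully, because proximal segments all belong to families other than Ighv1. Within Ighv1, 8 of 21 tested members were called in the middle group (median log2 fold change 0.90) and 2 of 29 in the distal group (median 0.23). Among the other families, 17 of 35 were called in the proximal group, 1 of 9 in the middle group and 0 of 3 in the distal group.

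A comparison within the Ighv counts shows which segments changed their share. When each library was scaled to its own Ighv total, 21 members were higher in NOD.B10 and 31 were lower, and 18 of the 21 were also higher with the usual scaling. This scaling moved the median of all genes by -0.82 on the log2 scale, and 2.55% of all genes were then higher and 78.3% lower. Relative to the Ighv total, Ighv11-2 (log2 fold change 2.97), Ighv12-3 (2.74), Ighv2-6 (2.01) and Ighv9-1 (1.87) gained most. Ighv1-82 was lower in this fit (-0.83, edgeR adjusted p = 0.00804), but its shares of the total overlapped between the strains. With 78.3% of all genes called lower, the adjustment of p is lenient here.

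The concentration of counts on a few leading segments was compared next. The 10 leading segments of each library held 43.6%, 50.1% and 39.2% of the Ighv counts in NOD.B10 spleens and 47.6%, 39.1% and 38.9% in controls, a difference in means of 2.49 percentage points (exact permutation p = 0.5, two-sided). The leading segment was a different one in each library. It was Ighv1-9, Ighv3-6 and Ighv6-3 in NOD.B10 and Ighv1-75, Ighv1-82 and Ighv6-6 in BL/10, with 5.84% to 13.3% of the counts. The effective number of segments, the number of equally used segments with the same entropy, was 50.5, 44.2 and 57.6 in NOD.B10 and 48.1, 58.2 and 56.2 in BL/10. All 126 members had at least 1 count in BL/10 replicates 1 and 3, and between 118 and 125 had one in the other libraries.

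**Figure D5:**
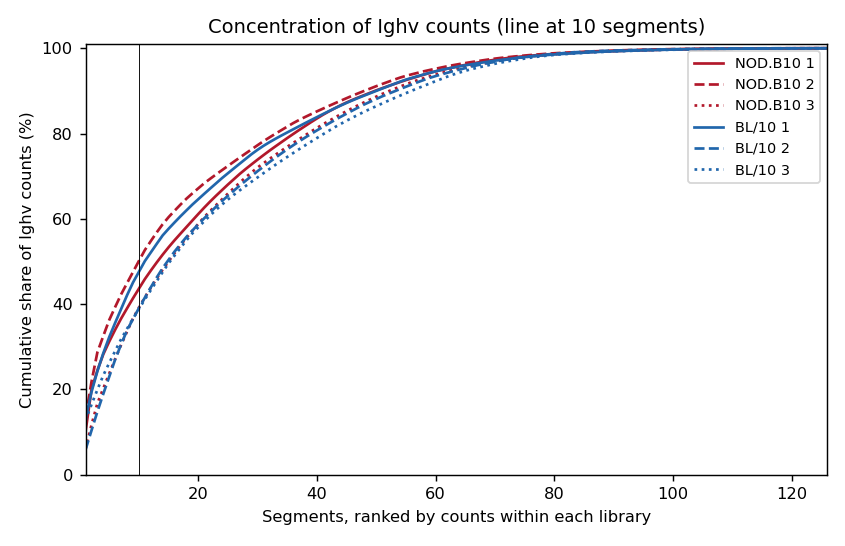
Cumulative share of Ighv counts (%) against segments ranked by counts within each library (red NOD.B10, blue BL/10). At 10 segments, marked by the vertical line, the curves lie between 38.9% and 50.1% and those of the strains interleave.

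Segment usage was also compared between pairs of spleens by the share of Ighv counts that would have to move to another segment to make 2 profiles equal. It was 27.5% to 30.0% between NOD.B10 spleens, 26.1% to 35.6% between BL/10 spleens and 25.9% to 42.2% between strains. The most similar pair was NOD.B10 replicate 3 and BL/10 replicate 2, and the most different pair was NOD.B10 replicate 2 and BL/10 replicate 1. Spearman's rho over the 126 members was at least 0.88 within strains and between 0.82 and 0.90 between strains, values that share library depth and base composition.

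To place the segments in their pathway, 38 genes of antibody heavy chain expression and assembly were examined, and 35 were tested. Of these, 7 were higher and 2 lower in NOD.B10 at an adjusted p under 0.05 in edgeR, and their median log2 fold change was 0.25. These are 20% and 5.71%, against 9.11% and 8.22% of all genes. The higher genes were Ighm and Ighg2c, constant genes of IgM and IgG2c, the joining chain gene Jchain, the plasma cell regulators Prdm1, Xbp1 and Irf4, and Mzb1, which helps to assemble IgM. Ighg2c, Prdm1, Xbp1, Rag1 and Dntt were called whichever library was left out. Among the fits that left out 1 library, Irf4 and Jchain were called only in that without BL/10 replicate 1. In the others their edgeR adjusted p values reached 0.137 and 0.113. Mzb1 lost the call without NOD.B10 replicate 3 or BL/10 replicate 3 (edgeR adjusted p = 0.0523 and 0.0588). Without BL/10 replicate 1, 19 genes passed in either direction, and with age as a covariate only Rag1 passed.

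Ighm had 13076, 17250 and 13244 CPM in the NOD.B10 spleens against 8541, 6931 and 8550 CPM in BL/10 (log2 fold change 0.86, SE 0.18, edgeR adjusted p = 0.0177). It lost the call without any one of the NOD.B10 libraries or without BL/10 replicate 2 (edgeR adjusted p 0.0509 to 0.0595). Ighg2c received 17142, 16919 and 18197 counts in the NOD.B10 spleens against 6251, 1913 and 5016 in BL/10 (log2 fold change 2.04, SE 0.32, edgeR adjusted p = 0.00538). Ighg3 varied between spleens, with 744, 1280 and 20512 counts in the NOD.B10 spleens against 15719, 3518 and 5205 in BL/10 (edgeR adjusted p = 0.951), and it was lower without NOD.B10 replicate 3 (log2 fold change -2.90, edgeR adjusted p = 0.0445). The IgA, IgE, IgG1 and IgG2b genes Igha, Ighe, Ighg1 and Ighg2b were not called, with log2 fold changes of -0.62, -1.20, 0.35 and 1.25, and Ighg2b passed without BL/10 replicate 1 (1.86, edgeR adjusted p = 0.00093). The libraries overlapped for Ighd, which naive B cells express (log2 fold change 0.38, SE 0.37), which passed without BL/10 replicate 1 (0.95, edgeR adjusted p = 0.0132).

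The genes that assemble V segments went the other way. Rag1, a subunit of the recombinase, received 4, 5 and 8 counts in the NOD.B10 spleens against 126, 297 and 179 in BL/10 (log2 fold change -5.16, SE 0.53, edgeR adjusted p = 0.00082). Dntt, the polymerase that adds untemplated bases at the joints, received 21, 11 and 34 counts in the NOD.B10 spleens against 83, 128 and 82 in BL/10 (log2 fold change -2.18, SE 0.40, edgeR adjusted p = 0.0104). Rag2 and Igll1, the latter a surrogate light chain gene of B cell precursors, were too low to be tested. Rag2 received 1, 0 and 0 counts in the NOD.B10 spleens against 5, 39 and 11 in BL/10, and Igll1 received 0 in each NOD.B10 library and 10, 85 and 37 in BL/10.

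Markers of the cells that a spleen holds moved unevenly. Of 12 B cell markers 0 were called in edgeR (1 at an unadjusted p under 0.05 and 1 with DESeq2, both higher), and their sums overlapped, at 4330 to 5616 CPM in NOD.B10 and 3256 to 5776 CPM in BL/10. Of 14 plasma cell markers, 7 were higher and 0 lower in edgeR (10 and 0 at an unadjusted p under 0.05, 9 and 0 with DESeq2). Among the 7, Cd28, is also on the T cell list, and 6 of the other 13 were higher. The 14 plasma cell markers summed to 4057 to 4635 CPM in NOD.B10 and 2694 to 3376 CPM in BL/10. Most of this sum was Jchain, with means of 2876 CPM in NOD.B10 and 1945 CPM in BL/10. Tnfrsf17 and Sec11c went the other way (log2 fold changes -0.26 and -0.11, not called). Ell2 and Slamf7 barely moved (0.07 and 0.03). Sdc1, a surface marker of plasma cells, averaged 33.1 ± 2.50 against 18.9 ± 3.95 CPM (SD, n = 3 each, log2 fold change 0.81, edgeR adjusted p = 0.0114). Of 9 tested germinal center markers 1 was higher in edgeR (4 higher and 1 lower at an unadjusted p under 0.05, 3 and 0 with DESeq2). It was Neil1, which was called in 1 of the 6 fits without 1 library. Of 16 T cell markers 13 were higher, and of 10 neutrophil markers all 10 were lower. The T cell markers summed to 1251 to 1636 CPM in NOD.B10 and 588 to 814 CPM in BL/10, and the neutrophil markers to 2140 to 2472 and 6140 to 12844 CPM. All 12 tested acinar markers were lower. The macrophage list had 1 higher and 1 lower gene of 10, and the erythroid list 1 lower gene of 10. The part of these cell types in the Ighv differences was not tested.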

How the data were processed

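Single-end 50-base reads were obtained from 1 spleen of each of 6 female mice, 3 per strain. The deposited values are raw counts per gene, which the authors made with featureCounts version 1.5.1 on exons of Ensembl annotation 84 (GRCm38), without normalization. Strand was not used, and reads that mapped to several places or overlapped several genes were not counted, so counts of near-identical segments are uncertain. The methods name Tophat2 as the aligner, and the submitters' processing notes name HISAT2 version 2.0.5. Symbols, biotypes and sequences came from GENCODE M21 (47224 of 47729 identifiers matched). All 126 members had the coordinates of the table. Sequences of NOD.B10 alleles were not used here.

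The strains were compared in edgeR 4.0.16 (R 4.3.3, limma 3.58.1), with DESeq2 1.42.0 as an alternative. Genes passing filterByExpr (15330) were scaled by TMM and tested by glmQLFTest, with Benjamini-Hochberg adjustment over all genes tested, a threshold of 0.05 and BL/10 as the reference. Shares of all genes called are given for the main edgeR settings and the Ighv scaling, and not for unadjusted p values, DESeq2 or other alternatives. Single values were compared by two-sided exact permutation tests. Segments named were the 10 most abundant per kb, the 10 with the largest fold change each way among those past the threshold, and up to 10 with at least 100 counts and a 4-fold excess in 1 library. Other segments were named after their values were seen. The members and gene lists were chosen with earlier results of these data known. Libraries are of separate mice, and counts of replicates differed by more than counting error (chi-square per degree of freedom at least 12.5). Replicate numbers did not pair the libraries. A test on simulated counts recovered 195 of 200 genes that were changed 4-fold, with 16 false calls among 15172 genes. It does not show how well smaller changes, such as that of the Ighv total, are recovered. Alternatives were other size factors, DESeq2, other filters, a stricter threshold, a replicate block, age as a covariate and leaving out each library. Scaling to the Ighv total and restriction to unique sequence were chosen after seeing the data.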

Additional observations from a re-analysis of the deposited data

How the results depend on the processing

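Directions rest on the strain in the descriptions, and age is partly confounded with strain. With age as a covariate, which leaves 1 BL/10 library at the age of NOD.B10, 11 members were higher (9 of them among the 28) and 5 lower (Ighv5-15, Ighv14-3, Ighv1-49, Ighv1-53 and Ighv1-75), 1 pathway gene and 3 families passed, and the Ighv total did not (log2 fold change 0.56, adjusted p = 0.107 from edgeR). With unique members only, the total did not pass (0.77, adjusted p = 0.0503). Members lower numbered 2 with DESeq2, 2 with every gene of at least 1 count, 1 with the replicate block (Ighv1-49) and 31 scaled to the Ighv total. At an adjusted p under 0.01, 11 members were higher. With every gene of at least 1 count, 14 pathway genes passed. Leaving out 1 library gave 17 to 33 members higher, 0 to 2 lower, 6 to 19 pathway genes, 4 to 9 families, a log2 fold change of the total from 0.70 to 0.94 and a difference in the share of the 10 leading segments from -0.41 to 5.37 percentage points.

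Replicate numbers did not pair the libraries (correlation of deviations 0.0234, 0.144 and -0.0888). With the replicate block 32 members were higher, 26 of them among the 28, and Ighv1-82 (-0.011) and the families Ighv6 (0.071) and Ighv7 (0.072) changed sign.

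Other log2 fold changes that changed sign were those of Ighv6-6 (0.12), Ighv8-2 (0.41) and the families Ighv6 (0.98), Ighv7 (0.44), Ighv13 (-0.22) and Ighv14 (-0.49) with age, of Ighv5-17 (-0.087), Ighv1-77 (-0.54) and Ighv1-82 (-0.83) scaled to the Ighv total, a scaling that by construction moves the median of all genes by -0.82, and of Ighv7 (0.0090) with upper-quartile factors. Over the fits without 1 library, values ran from -1.87 to 0.93 for Ighv8-2, -0.74 to 1.58 for Ighv10-3, -1.42 to 1.46 for Ighv1-77, -0.45 to 0.37 for Ighv1-82, -0.55 to 0.75 for Ighv6, -0.25 to 0.51 for Ighv7, -0.61 to 0.58 for Ighv10 and -0.085 to 0.65 for Ighv13. The causes were not tested. Of 563 values for single segments and families under alternatives, 473 kept direction and side of the threshold, 42 lost and 21 gained the threshold, and 27 changed sign. Members with few counts are limited by depth.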
